A study of Mus musculus with 8 samples.

Results

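The macrophage and leukocyte genes described here are 33 genes chosen by symbol, out of the 23827 rows of a table of read counts from mouse superior cervical ganglia. All 33 had a row, 32 under their own symbol and Spi1 under its older symbol Sfpi1. A total of 32 passed the filter on low counts and entered the test over 14592 genes, and Lyz1 did not. The ganglia came from mice of strain C57Bl6/n on postnatal day 1. The 4 conditional knockout (cKO) animals were KIF1Bb fl/fl and carried DBHcre +/-, so that Cre recombinase, driven by the promoter of the noradrenergic gene Dbh, could delete Kif1b beta in noradrenergic cells. The 4 control (WT) animals were also KIF1Bb fl/fl, so they carried the same floxed alleles, but were DBHcre -/-. Every library was made from polyadenylated RNA of both ganglia of 1 animal, and the comparison asked how loss of the kinesin KIF1B beta from these neurons altered gene expression in the ganglion.

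Macrophages live in peripheral ganglia beside neurons, satellite glia and vessels, where they take up dying cells and debris. They depend on the growth factor receptor CSF1R and on the transcription factor PU.1, the product of Spi1, and resident cells are commonly told from blood leukocytes by Mrc1, Cd163 and Lyve1. Sympathetic neurons undergo developmental cell death around birth, a time when such phagocytes are present. Cells of this kind are not a target of a Dbh-driven Cre, and some of the 33 genes are also used by other cells: Coro1a by neurons, Lyve1 by lymphatic endothelium, Pf4 by platelets, and S100a8 and S100a9 by neutrophils.

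Total counts lay between 16214912 and 18114418 per library. Levels are in CPM, the read count of a gene relative to the TMM-scaled library total, and differences are log2 fold changes of cKO over WT from edgeR's quasi-likelihood test, adjusted over all tested genes by the Benjamini-Hochberg method. Kif1b averaged 260 ± 52.7 CPM in cKO and 1224 ± 222 CPM in WT ganglia (SD, n = 4 each; adjusted p = 3.43e-04), with no overlap. As a check of the tissue, the noradrenergic markers Th and Dbh averaged 1233 ± 74.7 and 2117 ± 69.7 CPM in cKO ganglia and 1344 ± 107 and 2421 ± 195 CPM in WT ganglia.

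Most leukocyte genes did not pass the test. Of the 32 tested genes 1 rose in cKO ganglia, Cd37, and none fell, or 3.13% of them, beside 2.72% of all tested genes (1.6% higher and 1.12% lower). At an unadjusted p below 0.05 there were 3 genes of 32, Cd37, Ptprc and Irf8, where 16.8% of all tested genes passed that limit. The median log2 fold change was 0.22, beside -0.001 over all tested genes, and 27 of 32 values were positive, where 49.9% of all tested genes were positive. The 95% interval of the log2 fold change lay inside a 2-fold change in either direction for 25 of the 32 genes, beside 12805 of all 14592 tested genes. The genes vary together across libraries, so the positive values are not separate observations. CPM is a share of each library. In whole ganglia a difference in the number of leukocytes, in RNA per leukocyte or in the RNA of other cells cannot be told apart.

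**Figure D1:**
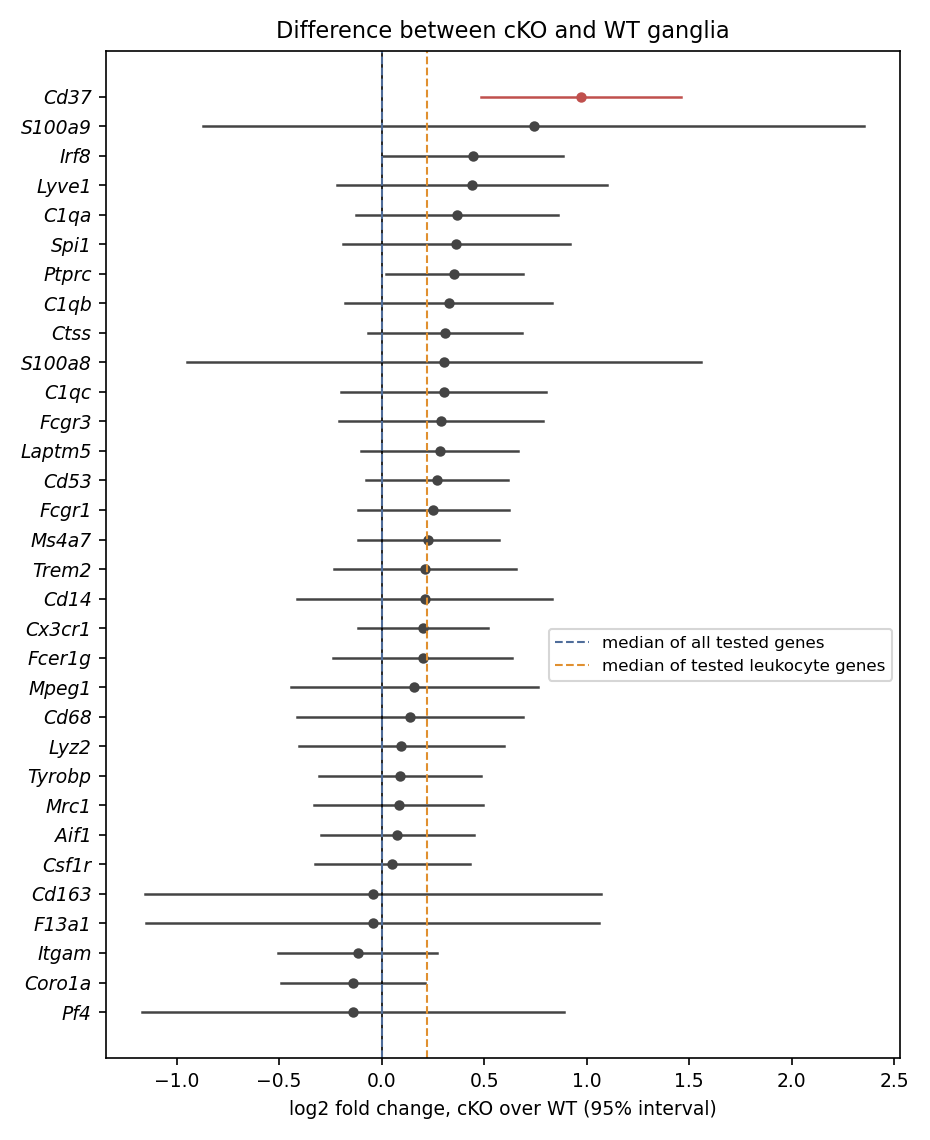
Log2 fold change of cKO over WT for the 32 tested leukocyte genes (points) with the 95% interval (lines), ordered by size; dashed lines mark the median of these genes (0.22) and of all tested genes (-0.001). Cd37, in red, is the gene past an adjusted p of 0.05, and the intervals of S100a9, S100a8, Cd163, F13a1 and Pf4 are the widest.

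The level of these genes varied between libraries of the same genotype. The library cKO 3 held the highest value of 21 of the 32 genes, WT 1 that of 6 and cKO 1 that of 3, and WT 2 held the lowest value of 23. The summed level of the 32 genes other than Coro1a was 485, 372, 601 and 409 CPM in cKO 1 to 4, against 503, 313, 416 and 362 CPM in WT 1 to 4. These ranges overlap, with WT 1 above 3 of the 4 cKO libraries. Leaving out cKO 3 brought the median of the tested genes to 0.09, and leaving out WT 1 brought it to 0.36.

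**Figure D2:**
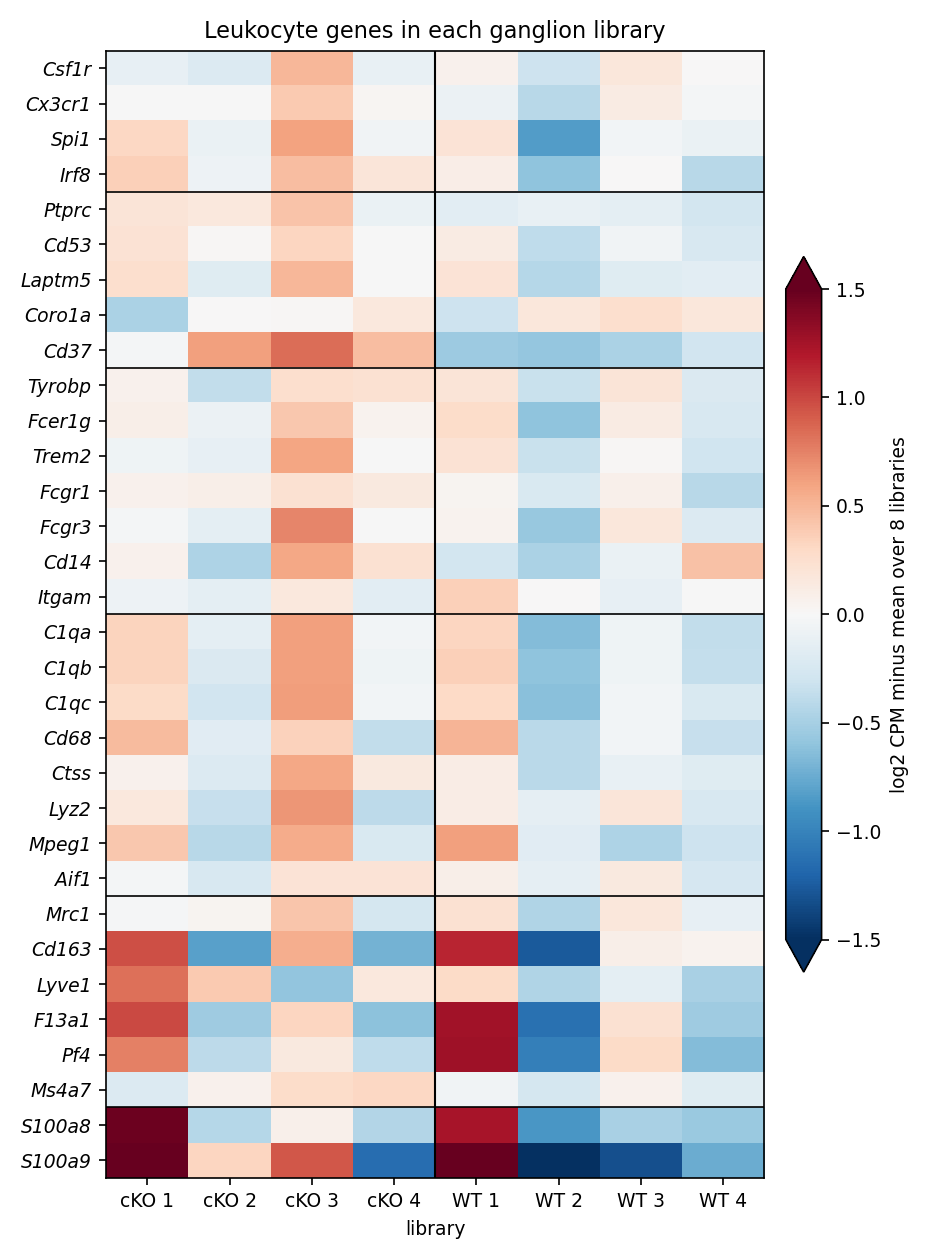
Log2 CPM of each tested leukocyte gene in each library, minus the gene's mean over the 8 libraries, with cKO libraries on the left and WT libraries on the right; black lines part the genes by role. Most genes are high in cKO 3 and low in WT 2, while Cd163, F13a1, Pf4, S100a8 and S100a9 are high in cKO 1 and WT 1, and Cd37 is low in each WT library.

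None of the 4 genes grouped here under macrophage identity, Csf1r, Cx3cr1, Spi1 and Irf8, passed the test, and their median log2 fold change was 0.28. Csf1r, the receptor for the growth factors CSF1 and IL-34, had 34.6, 32.5, 53.0 and 34.7 CPM in cKO 1 to 4, against 39.3, 30.1, 42.2 and 37.8 CPM in WT 1 to 4. Apart from the high cKO 3, the cKO values lay within the WT range. Its log2 fold change was 0.05 (SE 0.17, 95% interval -0.33 to 0.43, edgeR adjusted p = 0.937), and -0.14 without cKO 3. The exons of Csf1r share 873 bases with those of Hmgxb3 on the opposite strand, and whether counting used strand is not stated in the labels or notes. Hmgxb3 averaged 44.1 ± 5.66 CPM in cKO and 49.0 ± 5.04 CPM in WT ganglia.

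Cx3cr1, the fractalkine receptor of resident macrophages and microglia, averaged 26.1 ± 3.66 CPM in cKO and 22.7 ± 3.42 CPM in WT ganglia (log2 fold change 0.20, SE 0.14). Spi1, at 3.65 ± 0.861 CPM in cKO and 2.83 ± 0.780 CPM in WT, had 0.36 (SE 0.25). Irf8, an interferon regulatory factor needed for macrophage and B cell development, had 6.46, 4.78, 6.93 and 5.72 CPM in cKO 1 to 4, against 5.39, 3.32, 5.04 and 3.77 CPM in WT 1 to 4. Its groups overlapped, since cKO 2 lay below WT 1 and WT 3, and its change of 0.44 on the log2 scale (SE 0.20) did not pass (edgeR adjusted p = 0.293).

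PU.1 binds purine-rich sites around a GGAA core, and a stretch of promoter was read for the 27 of 33 genes with an entry in RefSeq's table for GRCm38.p6, from 250 bases before to 50 bases after each start. The 8 letters GAGGAAGT, a common form of the PU.1 core that contains the general ETS core GGAA, were searched on both strands. They stood in the promoter window of 7 of these 27 genes (25.9%), beside 997 of 27025 genes with a window in the table (3.69%). The 7 were C1qc, Cd37, Cd53, Ctss, F13a1, Pf4 and S100a8. With the last letter dropped, GAGGAAG was in 13 of 27 windows (48.1%) and in 15.4% of all. The letters were chosen after counts for several such motifs had been seen, and a match is a description of the sequence, not a site of binding. The 4 windows in which the motif lies wholly before the RefSeq start are shown on the gene's own strand. The motif is in capitals and reads ACTTCCTC because each match is on the opposite strand. The Cd37 window lies inside the gene's span in GENCODE vM21 (45233632 to 45239115), past the start in that annotation.
C1qc, chr4:136893091-136893120, minus strand: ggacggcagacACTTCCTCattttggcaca
Cd37, chr7:45238846-45238875, minus strand: acccccccggaACTTCCTCtttctctgccg
Pf4, chr5:90772414-90772434, plus strand: ttctgcagagcACTTCCTCat
S100a8, chr3:90668888-90668917, plus strand: ccaacactcccACTTCCTCagactcagaaa
These 4 genes did not share a pattern across libraries: Cd37 was lowest in the WT libraries, Pf4 and S100a8 peaked in cKO 1 and WT 1, and C1qc peaked in cKO 3.

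Cd37, a tetraspanin that B lymphocytes carry most among leukocytes, was the gene that rose. It had 2.11, 3.28, 3.86 and 2.97 CPM in cKO 1 to 4, from 37, 55, 68 and 55 counts, against 1.47, 1.44, 1.55 and 1.76 CPM in WT 1 to 4, from 24, 23, 27 and 29 counts. Every cKO library lay above every WT library, with cKO 1 nearest. The change was 0.97 on the log2 scale (95% interval 0.48 to 1.46, SE 0.22), with an edgeR adjusted p of 0.0459. With 1 library left out it lay between 0.83 and 1.10, and the adjusted p passed only without cKO 1 (0.0282) and lay between 0.0738 and 0.155 without each of the other 7. Groups did not overlap in 2 of the 32 genes, Cd37 and Ptprc, or 6.25%, beside 11% of all tested genes.

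A pair of measurements moved with Cd37. Tead2, a transcription factor gene on the opposite strand, shares 13 exon bases with Cd37 in the annotation, and it also rose, with 25.9, 27.0, 30.9 and 27.8 CPM in cKO 1 to 4, against 19.7, 16.5, 21.4 and 17.7 CPM in WT 1 to 4 (log2 fold change 0.57, SE 0.12, edgeR adjusted p = 0.0328). B lymphocyte genes also had more counts in cKO libraries. From a list of 30 lymphocyte genes, the 7 B cell genes Cd79a, Cd79b, Ms4a1, Pax5, Blnk, Cd22 and Rag1, together had 84, 105, 154 and 122 counts in cKO 1 to 4, against 49, 34, 48 and 46 counts in WT 1 to 4. Each of the 7 had more counts over the cKO libraries, from 18 against 1 for Pax5 to 138 against 54 for Cd79b. Of all 30 lymphocyte genes 25 had more counts in cKO, these 7 among them, so this direction was not particular to B cell genes. These are raw counts, not scaled to library totals. Among all tested genes, 49.9% had a positive log2 fold change. These 7 genes were picked after their values were seen, and 4 of them were too low for the filter. In a fit with no filter on low counts, Cd79a, part of the B cell receptor, passed (64 counts in cKO and 11 in WT, edgeR adjusted p = 0.0155) and the other 6 did not, with adjusted p from 0.0677 to 0.442. The part of Tead2 reads or of B lymphocytes in the change of Cd37 was not tested.

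The list of 30 lymphocyte genes as a whole held 6 tested genes, none of which passed. Those with the smallest p were Cd79b, at 1.26 (SE 0.38, edgeR adjusted p = 0.114), and Blnk, an adaptor of the B cell receptor, at 0.67 (SE 0.25, adjusted p = 0.206). Without Gata3, which sympathetic neurons express at a high level, the list summed to between 10.7 and 15.3 CPM in cKO and between 5.83 and 8.21 CPM in WT libraries. The 5 T cell receptor and coreceptor genes Cd3e, Cd3d, Cd3g, Cd8a and Cd8b1 were near 0. They had 17 counts over the 4 cKO libraries and 4 over the WT libraries. Cd247 and Cd4, also on the list, are not in this sum.

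**Figure D3:**
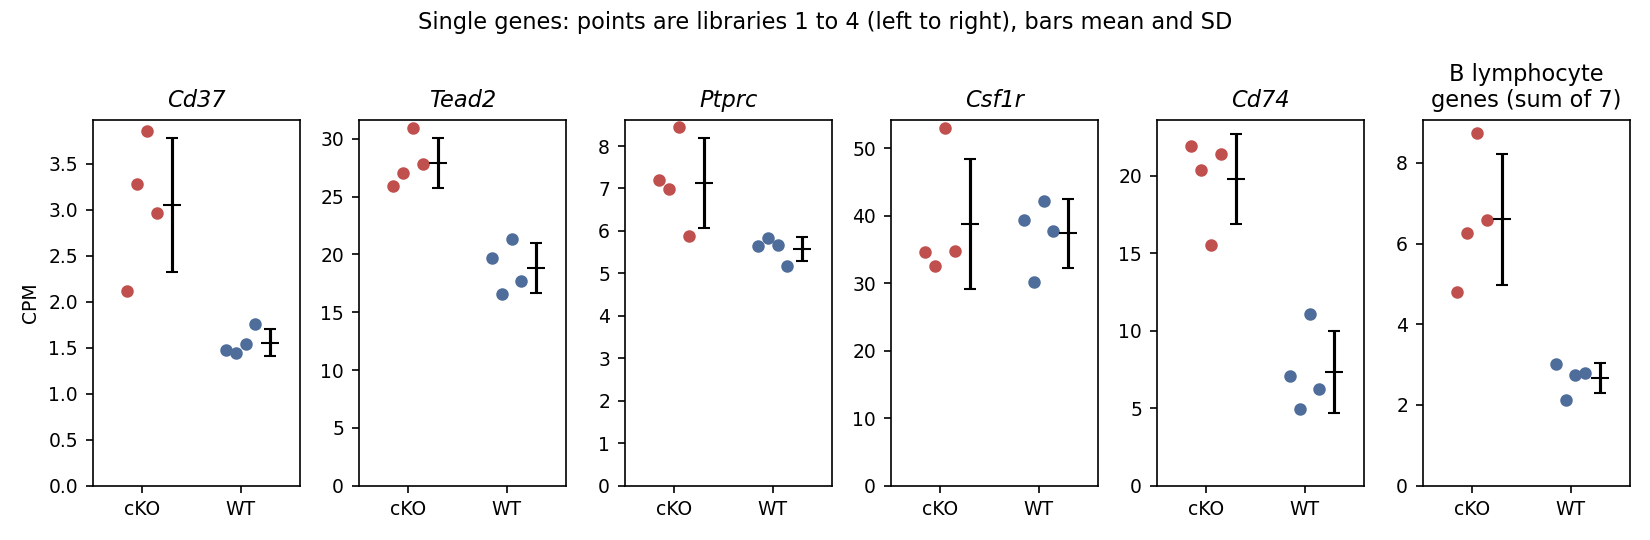
CPM of Cd37, its opposite-strand neighbour Tead2, Ptprc, Csf1r and Cd74, and the summed CPM of 7 B lymphocyte genes, in cKO (red) and WT (blue) libraries 1 to 4 from left to right, with the mean and SD (n = 4 each). Groups do not overlap for Cd37, Tead2, Ptprc, Cd74 and the B cell sum, and overlap for Csf1r. The 7 B lymphocyte genes were picked after their values were seen, so the gap in their sum is not a test. Among all tested genes, 11% do not overlap between groups.

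The other genes shared by most leukocytes did not pass the test. Ptprc, the CD45 phosphatase of all nucleated blood cells, had 7.20, 6.99, 8.46 and 5.88 CPM in cKO 1 to 4, against 5.64, 5.83, 5.67 and 5.17 CPM in WT 1 to 4. The groups are parted by the small gap between cKO 4 and WT 2, and the difference of 0.35 on the log2 scale (SE 0.15) did not pass (edgeR adjusted p = 0.266). Cd53, a tetraspanin, and Laptm5, a lysosomal membrane protein of blood cells, had 0.27 (SE 0.16) and 0.28 (SE 0.17).

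Coro1a, which encodes the actin regulator coronin-1, had a negative difference, as did Itgam, Cd163, F13a1 and Pf4. It had 65.7, 91.4, 92.1 and 102 CPM in cKO 1 to 4, against 73.5, 102, 108 and 102 CPM in WT 1 to 4. It was lowest in cKO 1 and WT 1, where Cd163 and F13a1 were highest, and its log2 fold change was -0.14 (SE 0.16, edgeR adjusted p = 0.754). Coronin-1 is known in sympathetic neurons as an effector of nerve growth factor signalling endosomes, and its level per kilobase of exon, 31.5 ± 5.53 CPM in cKO and 34.7 ± 5.61 CPM in WT, was the highest of the 33 genes in WT ganglia. A list of 17 neuron genes summed to between 21179 and 22604 CPM in cKO libraries and to between 24966 and 25989 CPM in WT libraries, and none of the 17 passed.

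The 3 chains of complement C1q, the molecule with which macrophages tag cells and synapses for removal, shared their highest and lowest libraries. C1qb had 47.5, 32.4, 57.6 and 36.1 CPM in cKO 1 to 4, against 48.1, 24.8, 36.0 and 29.5 CPM in WT 1 to 4. The highest values were those of cKO 3, WT 1 and cKO 1, and the groups overlapped. The log2 fold changes of C1qa, C1qb and C1qc were 0.37 (SE 0.22), 0.33 (SE 0.23) and 0.30 (SE 0.23), with edgeR adjusted p between 0.472 and 0.582. Per kilobase of exon, C1qb stood at between 1.01 and 1.10 times C1qa in each of the 8 libraries, and C1qc at 0.428 to 0.478 times C1qa in cKO and 0.463 to 0.517 times in WT libraries, while the 3 genes summed to between 87.4 and 156 CPM in cKO and between 65.8 and 127 CPM in WT. The genes lie side by side on the minus strand of chromosome 4 (GRCm38), C1qb from 136880129 to 136886187, C1qc from 136889804 to 136893065 and C1qa from 136895917 to 136898803. Set against Csf1r per kilobase, C1qb was 5.28 to 7.30 times as high in cKO and 4.15 to 6.50 times as high in WT libraries, ranges that overlap.

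None of the genes of the lysosome and of killing passed the test. Ctss, a cysteine protease for antigen processing, had 48.3, 40.1, 69.3 and 51.5 CPM in cKO 1 to 4, against 50.1, 35.0, 42.8 and 40.9 CPM in WT 1 to 4. The groups overlapped through WT 1 and cKO 2, and its difference of 0.31 on the log2 scale (SE 0.17) did not pass (edgeR adjusted p = 0.416). Cd68, a lysosomal glycoprotein, Mpeg1, a pore-forming protein that attacks engulfed bacteria, and Aif1, the actin-binding protein known as IBA1, had log2 fold changes of 0.14 (SE 0.25), 0.16 (SE 0.27) and 0.08 (SE 0.17). Mpeg1 had 42.2 and 46.7 CPM in cKO 1 and cKO 3 and 48.5 CPM in WT 1, and between 23.0 and 28.3 CPM in the other 5 libraries.

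Lysozyme in mice comes from a pair of neighbouring genes on chromosome 10, Lyz2 of macrophages and Lyz1 of the intestinal Paneth cell. Lyz2 averaged 21.8 ± 7.93 CPM in cKO and 20.4 ± 2.76 CPM in WT ganglia (log2 fold change 0.10, SE 0.23), a total of 2889 counts over the 8 libraries, against 5 counts for Lyz1. Their coding sequences in GENCODE vM21, 447 bases each, are 95.1% identical with 22 differing bases. The longest shared run is 118 bases, so reads within it could come from either gene, and how they were counted is not stated in the labels or notes. Bases 61 to 120 of each coding sequence, the stretch of 60 with the most differences, are shown with the 9 differing bases in capitals.
Lyz1: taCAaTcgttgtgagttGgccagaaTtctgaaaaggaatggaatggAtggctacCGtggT
Lyz2: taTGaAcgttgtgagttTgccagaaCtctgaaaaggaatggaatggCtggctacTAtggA

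Receptors and their adaptors varied little between genotypes. Tyrobp, the DAP12 adaptor, had 0.09 (SE 0.18) on the log2 scale, and Fcer1g, the Fc receptor gamma chain, had 0.20 (SE 0.20). Trem2, a lipid receptor that signals through DAP12, had 0.21 (SE 0.20), with 12.6 CPM in cKO 3 and between 6.64 and 9.69 CPM in the other 7 libraries. Fcgr1 and Fcgr3, receptors for immunoglobulin G, had 0.25 (SE 0.17) and 0.29 (SE 0.23). Fcgr3 is known to be close in sequence to Fcgr2b, so reads of the pair may be uncertain, and their sequences were not compared here. Cd14, the lipopolysaccharide coreceptor, at 1.64 ± 0.471 CPM in cKO and 1.42 ± 0.412 CPM in WT, had 0.21 (SE 0.28), and Itgam, the CD11b integrin, had -0.12 (SE 0.18). None of the 7 passed.

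Resident and perivascular macrophage genes differed in how they varied between libraries. Mrc1, the mannose receptor, and Ms4a7, a membrane protein of mature macrophages, averaged 16.4 ± 3.34 and 8.74 ± 1.37 CPM in cKO and 15.5 ± 3.19 and 7.46 ± 0.734 CPM in WT ganglia, and differed by 0.08 (SE 0.19) and by 0.23 (SE 0.15) on the log2 scale. F13a1, coagulation factor XIII A, instead had 10.9, 3.76, 6.81 and 3.56 CPM in cKO 1 to 4, against 13.1, 2.51, 6.41 and 3.77 CPM in WT 1 to 4. Cd163, the haemoglobin scavenger receptor, had 4.11, 1.19, 3.07 and 1.29 CPM in cKO 1 to 4, against 4.66, 0.878, 2.23 and 2.19 CPM in WT 1 to 4. Pf4, a platelet and macrophage chemokine, was also highest in those libraries, at 4.51 CPM in cKO 1 and 6.44 CPM in WT 1. Their log2 fold changes of -0.04 (SE 0.50), -0.04 (SE 0.50) and -0.14 (SE 0.46) changed sign with the libraries used: without WT 1 they were 0.55, 0.44 and 0.45, and without cKO 1 they were -0.46, -0.44 and -0.45.

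S100a8 and S100a9, the calprotectin pair of neutrophils and monocytes, peaked in the same libraries. S100a9 had 2.63, 0.896, 1.36 and 0.324 CPM in cKO 1 to 4, against 2.15, 0.251, 0.286 and 0.426 CPM in WT 1 to 4. In WT 2 this stood for 4 counts and in WT 1 for 35. The log2 fold changes of S100a8 and S100a9, 0.30 (SE 0.57) and 0.74 (SE 0.73), have 95% intervals from -0.95 to 1.56 and from -0.87 to 2.35, so at this depth and spread a 2-fold higher level of either gene lies inside its interval. The value of S100a9 was 0.13 without cKO 1 and 1.99 without WT 1. Other neutrophil genes were scarce: Elane had 1 count in all 8 libraries, and Ngp had 29 counts in cKO and 15 in WT libraries. None of the 3 tested genes of the 17 on the neutrophil list passed, among them Prtn3 at -0.25 (SE 0.16) and Mmp9 at 0.34 (SE 0.52).

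Some markers of other cells were high in the same pair of libraries. Of 11 mast cell genes, the 4 proteases Cpa3, Cma1, Mcpt4 and Tpsb2 summed to 60.3, 19.0, 17.0 and 40.5 CPM in cKO 1 to 4, against 65.0, 8.34, 23.0 and 13.1 CPM in WT 1 to 4. These 4 were picked after their values were seen. The whole list, in which Gata2 and Kit have the highest levels and are not limited to mast cells, summed to 574, 401, 541 and 429 CPM in cKO 1 to 4, against 583, 419, 404 and 435 CPM in WT 1 to 4. Red blood cell genes, on 9 rows of which 2 were at 0 throughout, summed to 689 CPM in cKO 1 and 464 CPM in WT 1, and to between 50.2 and 81.0 CPM in the other cKO and between 40.0 and 110 CPM in the other WT libraries. The 17 muscle and cartilage genes summed to 267 CPM in cKO 1 and 133 CPM in WT 1, and to between 73.0 and 84.0 CPM in the other cKO and between 62.0 and 62.4 CPM in the other WT libraries. Without cKO 1 and WT 1 together, F13a1, Cd163 and Pf4 had log2 fold changes of 0.15, 0.06 and 0.15, none past the test, and the median of the tested leukocyte genes was 0.34. The part of blood, mast cells or muscle in these levels was not tested. Of 7 tested mast cell genes none passed, with Cma1 at 0.44 (SE 0.61) and Tpsb2 at 0.35 (SE 0.57).

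**Figure D4:**
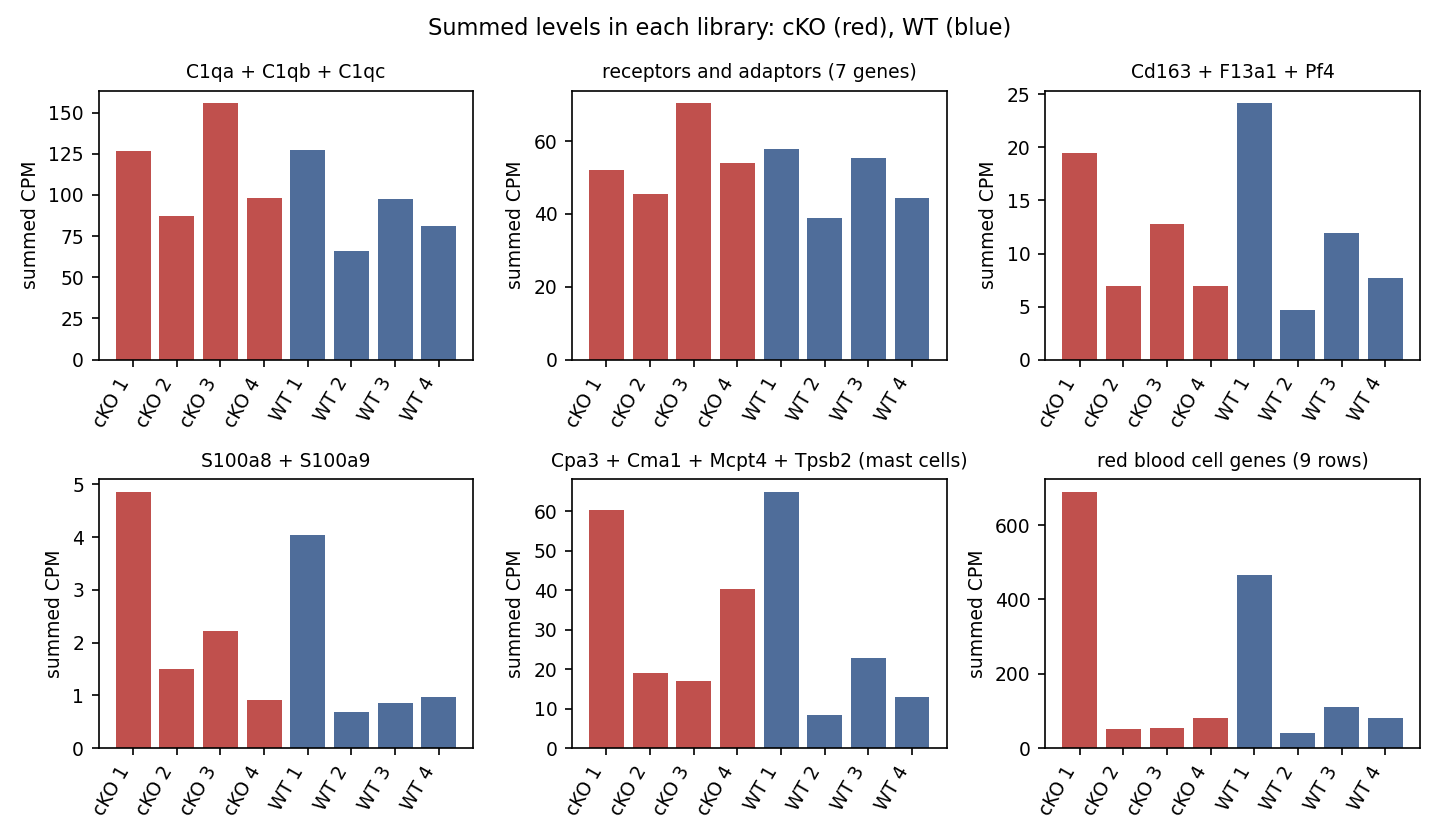
Summed CPM per library of 3 C1q genes, 7 receptor and adaptor genes, Cd163 with F13a1 and Pf4, S100a8 with S100a9, 4 mast cell genes and red blood cell genes, with cKO libraries (red) left of WT libraries (blue). The lower row and Cd163, F13a1 and Pf4 peak in cKO 1 and WT 1, and the C1q genes peak in cKO 3 and are lowest in WT 2.

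Lyve1, the hyaluronan receptor of lymphatic vessels and of a class of perivascular macrophages, had 5.14, 3.82, 1.93 and 3.24 CPM in cKO 1 to 4, against 3.56, 2.13, 2.63 and 2.07 CPM in WT 1 to 4. The value in cKO 3, where most macrophage genes peaked, was the lowest of all 8. Its log2 fold change was 0.44 (SE 0.30, edgeR adjusted p = 0.532). None of 5 tested lymphatic endothelial genes of a list of 6 passed, with Pdpn at 0.37 (SE 0.13), Reln at 0.34 (SE 0.14) and the lymphatic transcription factor Prox1 at 0.44 (SE 0.32). Of the 8 platelet genes 3 were tested and none passed, with Itgb3 at 0.56 (SE 0.17) and Gp1bb at -0.42 (SE 0.25), and the platelet chemokine Ppbp had 15 counts in cKO and 13 in WT libraries.

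The 33 genes spanned a wide range of levels. Per kilobase of annotated exon, WT levels were highest for Coro1a at 34.7 ± 5.61 CPM, C1qb at 31.8 ± 9.29, Ctss at 31.1 ± 4.60 and C1qa at 29.6 ± 8.66 (SD, n = 4). The corresponding cKO levels were 31.5 ± 5.53, 39.9 ± 10.5, 38.5 ± 9.05 and 38.2 ± 9.35 CPM per kilobase. Next in WT came Tyrobp, Lyz2, C1qc and Fcer1g, between 11.5 and 18.9 CPM per kilobase, and Lyz1, Ptprc and Cd37 were the lowest. Of the 32 neighbours in this order, 30 overlapped in their ranges over the WT libraries. Exon lengths join all annotated isoforms, which lowers the level per kilobase of genes with many, such as Ptprc with 18.3 kilobases.

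Macrophage genes beyond the 33 had a like median. Of 80 tested genes of a list of 86, 1 rose and none fell, with a median log2 fold change of 0.23 and 71 positive values. The gene was Axl, a receptor for apoptotic cells that vessel and glial cells also express, with 100.5 ± 13.3 CPM in cKO and 68.3 ± 6.43 CPM in WT ganglia (log2 fold change 0.56, SE 0.12, edgeR adjusted p = 0.0375), and it passed in 2 of the 8 fits with 1 library left out. Adgre1, the gene of the macrophage antigen F4/80, had -0.12 (SE 0.13) at 18.1 ± 2.76 CPM in cKO and 19.7 ± 1.55 CPM in WT. P2ry12, known as a microglial marker, lay between 14.2 and 40.7 CPM in cKO and between 12.8 and 24.6 CPM in WT libraries (log2 fold change 0.45, SE 0.30). Tmem119, another, averaged 15.6 ± 3.16 CPM in cKO and 11.6 ± 2.19 CPM in WT (0.43, SE 0.18), and neither passed. These 3 genes were named after their values were seen.

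Of 19 tested genes for macrophage growth factors and attractants, from a list of 32, 1 rose and none fell. Cxcl12, a chemokine of stromal and vessel cells, had 66.9, 157, 95.8 and 135 CPM in cKO 1 to 4, against 36.7, 62.2, 52.7 and 58.2 CPM in WT 1 to 4 (log2 fold change 1.12, SE 0.25, edgeR adjusted p = 0.0459), and passed in 1 of the 8 fits with 1 library left out. The CSF1R ligands Csf1 and Il34 differed by 0.35 (SE 0.20, edgeR adjusted p = 0.43) and 0.42 (SE 0.16, edgeR adjusted p = 0.217) on the log2 scale. Cx3cl1, the ligand of CX3CR1, had 0.59 (SE 0.23), and Ccl2, a monocyte chemokine, had -0.30 (SE 0.49). Cd200 and Cd47, which restrain macrophages and are carried by neurons, had -0.24 (SE 0.11) and -0.27 (SE 0.11), and none of these passed.

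Among complement genes other than C1q, 2 of 15 tested rose and none fell, with a median of 0.03. C1s1, a protease that works with C1q and is made largely by fibroblast-like cells, had 44.5 ± 3.93 CPM in cKO and 28.6 ± 4.17 CPM in WT (log2 fold change 0.64, SE 0.13, edgeR adjusted p = 0.0288). This call held in 2 of the 8 fits with 1 library left out.

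Class II histocompatibility genes, which macrophages, dendritic cells and B lymphocytes use to present antigen, gave more calls. H2-Ab1, H2-Aa, Cd74 and H2-Eb1 rose, 4 of 6 tested (66.7%), beside 2.72% of all tested genes past the threshold. Their log2 fold changes were from 1.29 to 1.54 (edgeR adjusted p from 0.0060 to 0.0288). With 1 library left out, H2-Ab1 passed in 8 of 8 fits, Cd74 in 7, H2-Aa in 6 and H2-Eb1 in 3, and without cKO 4 and WT 4 none of the 4 passed, with adjusted p from 0.0659 to 0.184. Cd74 had 21.9, 20.4, 15.6 and 21.4 CPM in cKO 1 to 4, against 7.11, 4.95, 11.1 and 6.26 CPM in WT 1 to 4. In cKO 3, where Csf1r was highest, Cd74 was lowest among cKO libraries. Per kilobase, Cd74 stood at 1.01 to 2.18 times Csf1r in cKO and 0.565 to 0.901 times Csf1r in WT libraries, with no overlap. Against Ptprc per kilobase Cd74 stood at 20.1 to 39.7 in cKO and 9.27 to 21.3 in WT libraries, ranges that overlap through cKO 3 and WT 3. H2-Ab1 against Ptprc stood at 4.93 to 9.81 in cKO and 2.45 to 4.03 in WT libraries, without overlap. Cd74 and H2-Ab1 were themselves called higher, so a gap in these ratios is not separate evidence.

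Set beside other cells of the ganglion, the 0.22 median of leukocyte genes compares with 0.56 for 23 blood vessel genes, of which 6 rose, 0.61 for 13 fibroblast genes, of which 7 rose, and 0.48 for 18 glial genes, of which 4 rose. None of these genes fell past the threshold. The 17 neuron genes had a median of -0.16. None of 9 tested sensory neuron, 3 red blood cell and 11 muscle and cartilage genes passed. The summed level of vessel genes lay between 665 and 806 CPM in cKO and between 431 and 516 CPM in WT libraries, without overlap, while the sum of leukocyte genes overlapped. The difference between these lists was not tested.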

How the data were processed

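Read counts per gene symbol were deposited by the authors. Reads were aligned by STAR against mm10, as the submitters' processing notes list. Libraries were TruSeq v2, from the ganglion pair of 1 animal each, per the labels' protocols. Counting program, annotation and strand use were not found in these sources. The 8 columns were matched to samples by title. Within a group, libraries differed beyond counting noise (chi-square per gene 8.00 to 58.6).

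The quasi-likelihood test of edgeR 4.0.16 (R 4.3.3; TMM, filterByExpr, robust) used genotype alone, and genes passed below a Benjamini-Hochberg adjusted p of 0.05. An SE is the size of the log2 fold change divided by the root of F. The procedure was tested on simulated data. Alternatives were DESeq2 1.42.0, other scaling, no filter, a replicate block and fewer libraries. Exon lengths and coordinates are from GENCODE vM21 (GRCm38), promoters and synonyms from RefSeq. Beside the 33 genes and Kif1b, the text names from each of 16 other lists at most 4 passing genes of lowest p, or a pair of lowest p if no gene passed, plus 8 fixed genes (Csf1, Il34, Cx3cl1, Ccl2, Cd200, Cd47, Prox1, Ppbp); vessel, glial, fibroblast, neuron, sensory, red blood cell and muscle lists are given as counts or sums, and any other gene was named after its values were seen. The genes and lists were chosen with earlier results of these data known. Figures used matplotlib 3.10.9. Some genes that these rules take in are not reported here.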

Additional observations from a re-analysis of the deposited data

Results flagged for a closer look

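Among 64 groups of 4 libraries, 7 held a library whose gap to the nearest other, relative to the group's range, was above Dixon's 95% limit. Chance marks about 1 in 20 groups. The genes vary together, so these are not separate events. In cKO 3, Csf1r had 53.0 CPM, Cx3cr1 31.6 CPM, Trem2 12.6 CPM and Fcgr3 18.1 CPM, each above the other cKO libraries. S100a8 had 2.23 CPM in cKO 1 and 1.90 CPM in WT 1, and S100a9 had 2.15 CPM in WT 1, each above the other libraries of its group.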

How the results depend on the processing

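The number of leukocyte genes past the threshold stayed at 1 (Cd37) under other scalings, the DESeq2 Wald test, the replicate block and without cKO 1 and WT 1. It was 0 with no filter on low counts (Cd37 adjusted p = 0.0557) and 0 without cKO 4 and WT 4, and ranged from 0 to 1 with 1 library left out. Over all genes, 397 passed (234 higher, 163 lower), against 1012 by the DESeq2 Wald test, 65 without cKO 4 and WT 4, and 74 to 514 with 1 library left out. Library size alone gave 343 higher and 145 lower and moved the median of all genes by 0.05 on the log2 scale. The cause was not tested. Same-numbered libraries had correlations of 0.72, 0.35, -0.30 and 0.27, so numbers were not taken as pairs; the replicate block gave 687 genes, with Cd37 still past it and a median of 0.22 over the leukocyte genes. Under that block Cd79b (1.25, adjusted p = 0.0456) and Itgb3 (0.54, adjusted p = 0.0355) also passed.

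The median of leukocyte genes kept its sign under every alternative run, from 0.09 to 0.36 with 1 library left out. Of 32 genes 20 kept their direction throughout. With 1 library left out, log2 fold changes ranged from -0.14 to 0.13 for Csf1r, -0.0014 to 0.21 for Tyrobp, -0.020 to 0.36 for Cd68, -0.17 to 0.23 for Lyz2, -0.014 to 0.44 for Mpeg1, -0.065 to 0.18 for Mrc1, -0.44 to 0.44 for Cd163, -0.46 to 0.55 for F13a1, -0.45 to 0.45 for Pf4 and -0.35 to 1.02 for S100a8. Among other genes the range was -0.12 to 1.11 for Tpsb2, -0.0071 to 0.58 for Mmp9, -2.14 to 1.62 for Hbb-b1, -1.28 to 1.59 for Alas2 and -0.57 to 0.32 for Ccl2. Without cKO 4 and WT 4, Tyrobp was at -0.028, Aif1 at -0.050 and Cd163 at 0.11. Without cKO 1 and WT 1, Itgam was at 0.00067, Cd163 at 0.062, F13a1 at 0.15, Pf4 at 0.15 and Alas2 at -0.16. With library size alone Cd163 was at 0.0037 and F13a1 at 0.0044, and with the replicate block F13a1 was at 0.043. Low counts limit Lyz1, S100a8, S100a9 and the lymphocyte genes.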
